A study of Mus musculus with 12 samples.

Results

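The 45 genes described here are interferon-stimulated genes of the mouse, chosen by gene symbol as effectors, sensors, transcription factors and GTPases of the interferon response, and they are 45 of 56980 features in the deposited gene table. The rule itself uses symbols and not measured values, but the genes were picked with earlier results of these data known. Of the 45 genes, 44 had enough counts to be among the 12052 genes tested, and Isg20, an exonuclease of RNA, did not. By role they comprise 3 transcription factors, 4 Ifit proteins, 6 Oas family members, 2 Mx GTPases, 3 genes of the ISG15 system, 11 nucleotide and membrane effectors, 3 nucleic acid sensors, 5 Ifi200 family members, 3 genes of an ADP-ribosylation group and 5 Gbp and Irg GTPases.

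RNA came from 12 cultures of bone-marrow-derived macrophages (BMDM), cells grown out of mouse marrow with 50 ng/mL of the growth factor M-CSF, then frozen, thawed and plated. The cells were wild type (WT) or Trem2 knockout (Trem2 KO), Trem2 being a surface receptor of myeloid cells that binds lipids. Each genotype received 25 nM bafilomycin A1 (BafA1), a blocker of the V-ATPase proton pump that acidifies lysosomes, or the same percentage of its solvent DMSO for 22 hours, and each of the 4 groups held 3 libraries. The labels give each replicate as marrow pooled from several mice, 3 in knockout studies, and give neither strain, age nor the deleted part of Trem2. Libraries were made from 3′ ends of mRNA, and levels are given as CPM, a gene's counts scaled to a common library total after TMM normalization, which in a 3′ protocol do not grow with transcript length.

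Interferons are secreted proteins that cells make after sensing foreign or misplaced nucleic acid. Type I interferons bind the receptor Ifnar1 and Ifnar2, whose kinases Jak1 and Tyk2 phosphorylate signalling factors, Stat2 among them, which join Irf9 in the complex ISGF3. ISGF3 and other interferon regulatory factors bind the interferon-stimulated response element (ISRE) in promoters, whereas interferon gamma acts mainly on gamma-activated sites (GAS). The induced proteins bind or degrade viral RNA, modify other proteins and attack membranes around microbes, and macrophages keep many of these genes at a low basal level.

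RefSeq promoter windows (assembly GRCm38.p6, from 250 bases before to 50 after a gene's start) were matched by symbol to 35 of the 45 genes. The ISRE letters (GAAA, any 2 bases, GAAA), read on both strands with overlapping tandem matches allowed, stood in the windows of 22 of these 35 genes (62.9%), against 1079 of 27025 genes in the table (3.99%). The GAS letters TTCNNNGAA, which read the same on both strands, stood in 7 of the 35 (20.0%), against 9.55% of all genes. The stretches below were picked because they hold the ISRE letters, and they run 5′ to 3′ on the gene's strand. In each, a single ISRE match stands in capitals. Further matches in these stretches, such as a separate ISRE match of Ifit1, overlapping ISRE matches of Isg15 and a GAS match of Bst2, stay in lower case. The first set shows genes that fell with BafA1, and the Ifit3 and Ifit3b stretches are the same.
Isg15, chr4:156200856-156200915, minus strand: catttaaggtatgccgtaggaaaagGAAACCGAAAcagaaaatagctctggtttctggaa
Ifit1, chr19:34640779-34640838, plus strand: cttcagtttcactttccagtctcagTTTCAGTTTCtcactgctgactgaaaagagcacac
Ifit3, chr19:34583382-34583441, plus strand: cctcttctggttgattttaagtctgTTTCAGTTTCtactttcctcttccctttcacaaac
Ifit3b, chr19:34607778-34607837, plus strand: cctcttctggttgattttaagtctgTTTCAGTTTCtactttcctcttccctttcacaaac
The second set shows the 3 genes that rose with BafA1 in WT cells, in the same notation.
Gbp2, chr3:142620579-142620638, plus strand: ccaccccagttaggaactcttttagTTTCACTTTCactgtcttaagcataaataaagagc
Gbp3, chr3:142559974-142560033, plus strand: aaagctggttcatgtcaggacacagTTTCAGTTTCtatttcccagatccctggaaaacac
Bst2, chr8:71537562-71537621, minus strand: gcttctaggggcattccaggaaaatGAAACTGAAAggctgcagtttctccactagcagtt
Of all matched genes, the ISRE letters stood in 3 of 3 that rose with BafA1 in WT and in 16 of 27 that fell. GAS letters stood in 1 of those 3 and in 4 of those 27. A match describes the letters of a reference window and is not evidence of a bound factor. Windows for Dhx58, Ifi204, Mx1, Mx2, Oas2, Parp9, Parp14, Rtp4, Usp18 and Zbp1 were not used here.

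Libraries held 4407466 to 7074860 estimated counts, and RNA integrity numbers lay between 9.7 and 9.9. Trem2 (ENSMUSG00000023992) averaged 588 and 401 CPM in WT cells (DMSO, then BafA1) and 212 and 160 CPM in Trem2 KO cells, and a 3′ tag outside the deleted part can remain. The 10 macrophage markers were all expressed, and their summed level in WT cells was 8778 to 9419 CPM without and 6341 to 6850 CPM with BafA1, and in Trem2 KO cells 8728 to 10238 CPM without and 6455 to 7782 CPM with it. Granulocyte markers (12 listed, none at 0 in every library) differed between the groups, summing in WT cells to 160 to 178 CPM without and 48.4 to 59.9 CPM with BafA1, and in Trem2 KO cells to 399 to 677 CPM without and 71.8 to 128 CPM with it. Conventional dendritic cell markers summed to 60.5 to 101 CPM in WT and 10.4 to 18.9 CPM in Trem2 KO libraries. In WT this was nearly all Itgax, and of the 2 tested markers Itgax was lower (-3.27, SE 0.20, adjusted p = 3.9e-11 in DMSO) and Ccr7 higher in Trem2 KO (3.00, SE 0.51, adjusted p = 9.2e-05). Plasmacytoid dendritic cell markers, a list that holds Bst2 itself, summed in WT cells to 366 to 389 CPM without and 225 to 258 CPM with BafA1, and in Trem2 KO cells to 447 to 521 CPM without and 274 to 314 CPM with it, while their defining gene Siglech never exceeded 3.23 CPM. The fall of this sum followed Tcf4 (264 to 93.4 CPM in WT means). Of its 5 tested markers 3 rose and 2 fell with BafA1 in WT, while 1 rose and 2 fell in Trem2 KO. In DMSO 3 of the 5 were higher in Trem2 KO and 0 lower, against 13.8% and 16.5% of all genes. In BafA1 1 was higher and 1 lower, against 12.5% and 14.2%. Siglech fell with BafA1 in WT (-2.86, SE 0.85, adjusted p = 0.0081) and in Trem2 KO (-4.23, SE 0.72, adjusted p = 6.1e-05), with 2 counts in each treated group. In DMSO it averaged 0.998 CPM in WT and 2.70 CPM in Trem2 KO, without overlap. The part of these markers in the results was not tested. T and NK cell markers summed to 2.18 to 3.20 CPM in WT and 5.61 to 9.26 CPM in Trem2 KO libraries, with Trbc1 at 0 throughout. The higher T and NK sum in Trem2 KO was mostly Cd4 (0.685 and 3.89 CPM in DMSO means), whereas Cd3e was not called between genotypes. B cell markers stayed at or below 3.01, mast cell and basophil markers at or below 2.67, and stromal markers at or below 7.44. In bulk samples fewer cells of a type and less RNA per cell cannot be told apart.

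Within groups, 3 libraries stood apart in these genes. WT BafA1 replicate 3 had the highest level of its group for 33 of the 45 genes, Trem2 KO DMSO replicate 1 the lowest for 34 and Trem2 KO BafA1 replicate 1 the lowest for 32. Counts of called genes without them are given with each comparison.

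**Figure D1:**
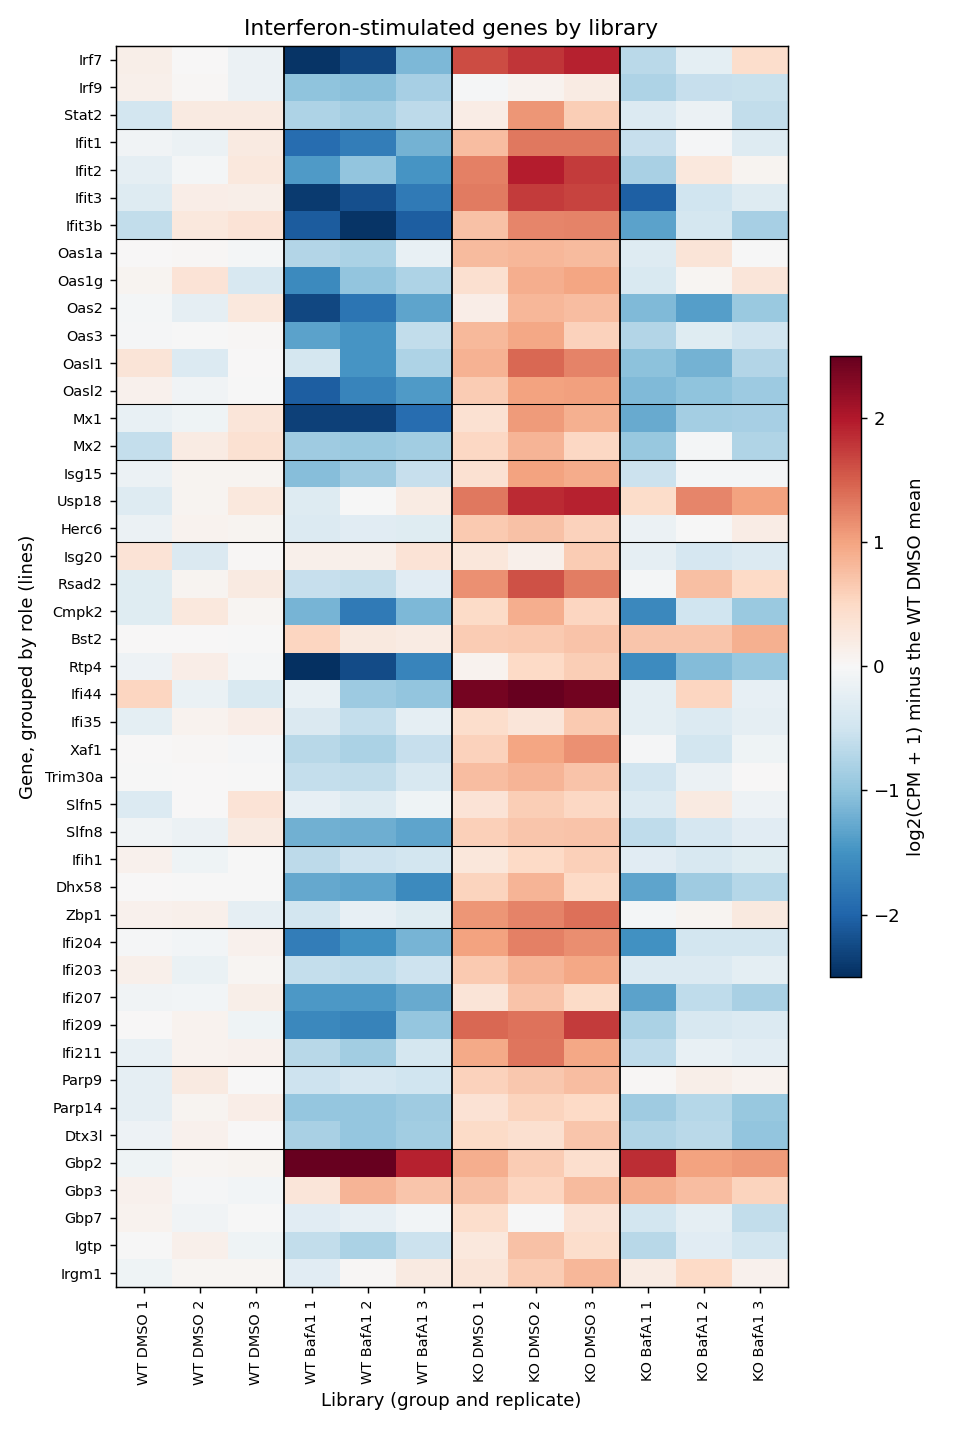
Level of each of the 45 genes (rows, by role) in each of the 12 libraries (columns, by group), as log2(CPM + 1) minus the mean of the 3 WT DMSO libraries. For 42 genes the Trem2 KO DMSO mean is the highest and for 38 the WT BafA1 mean the lowest, while Gbp2 is highest in WT BafA1.

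The first question was how the genes responded to BafA1 in WT cells. Most fell: 35 of the 44 tested were lower with BafA1 by edgeR's quasi-likelihood test at a Benjamini-Hochberg adjusted p of 0.05, and 3 (Gbp2, Gbp3 and Bst2) were higher. Over all genes tested 46.9% were called, 25.3% lower and 21.6% higher. The median log2 fold change of the 44 genes was -0.94, against -0.04 over all genes tested. BafA1 and DMSO libraries did not overlap for 36 of the 45 genes, which held for 56% of all genes tested. All 7 tested granulocyte markers and 9 of 10 macrophage markers also fell in this comparison, and their part in the result was not tested.

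The 3 transcription factors fell. Irf7 (ENSMUSG00000025498), an interferon-induced factor that drives interferon genes, stood at 20.3, 18.4 and 16.5 CPM in the WT DMSO libraries and 2.52, 3.01 and 7.82 CPM with BafA1 (log2 fold change -2.06, SE 0.30, adjusted p = 4.9e-06). Every BafA1 library lay below every DMSO library, and replicate 3 was the highest of the treated ones. Irf9, the DNA-binding subunit of ISGF3, went from 101, 94.2 and 83.7 CPM to 45.6, 44.4 and 51.4 CPM, again without overlap (-0.98, SE 0.097, adjusted p = 1.8e-08). Stat2, its signalling partner, fell as well (-0.87, SE 0.22, adjusted p = 0.0021).

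All 4 Ifit genes, whose products bind foreign RNA, were lower. Ifit3b was at 3.63, 7.58 and 8.01 CPM in DMSO and 0.671, 0.301 and 0.695 CPM in BafA1 (-3.54, SE 0.44, adjusted p = 5.6e-07). Ifit1 was at 9.61, 9.27 and 12.3 CPM and then 2.01, 2.41 and 3.996 CPM (-1.90, SE 0.27, adjusted p = 2.9e-06). For both genes the groups were well apart, although each treated library of Ifit3b rested on 2 to 4 counts. Ifit3 and Ifit2 changed by -2.62 and -1.64. Ifit3 shares 17.4% of the 31-base words in its last 300 transcript bases with other genes, most often Ifit3b. Reads may therefore be split between them. The counts of both were not whole in any library, but the same held for Slfn5, which shares 0% of its words.

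All 6 Oas family genes fell too. Oas enzymes make the short oligoadenylates that activate RNase L, and Oas-like proteins belong to the same family. Oasl2 stood at 29.0, 25.4 and 26.9 CPM in DMSO and 5.71, 7.97 and 9.56 CPM in BafA1 (-1.80, SE 0.16, adjusted p = 4.5e-09). Oas2 went from 5.98, 5.22 and 7.71 CPM to 0.503, 1.05 and 1.91 CPM (-2.45, SE 0.36, adjusted p = 5.9e-06). Neither gene overlapped between treatments. The Oas1a call was lost without replicate 2 of WT BafA1 (-0.44, adjusted p = 0.063). That of Oasl1 was lost without replicate 1 of WT DMSO (-1.25, adjusted p = 0.079) and without replicate 2 of WT BafA1 (-0.95, adjusted p = 0.13).

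The Mx GTPases, dynamin-like proteins that block virus replication, were close to the detection limit in treated WT cells. Mx1 was at 3.42, 3.71 and 5.19 CPM in DMSO, and with BafA1 it had 2 counts in replicate 3 and none in the other libraries. The ratio of its 2 BafA1 counts to 73 DMSO counts, scaled by library size, was 0.0259 (95% exact interval 0.00308 to 0.0970, counting error only; edgeR adjusted p = 5.8e-07). Mx2 fell from 0.641, 1.85 and 2.23 CPM to 0.336, 0.301 and 0.348 CPM, with 2 counts in each treated library (-2.25, SE 0.63, adjusted p = 0.0051).

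In the ISG15 system, Isg15, a ubiquitin-like protein that is attached to other proteins, fell from 21.8, 25.4 and 25.2 CPM to 11.1, 12.6 and 15.8 CPM (-0.88, SE 0.18, adjusted p = 0.00030). Herc6, the mouse ligase that attaches it, was at 19.9, 23.8 and 23.3 CPM and 17.5, 18.0 and 17.9 CPM (-0.33, SE 0.13, adjusted p = 0.033). The groups did not overlap for either gene, but the Herc6 call was lost without replicate 2 or 3 of WT DMSO, replicate 1, 2 or 3 of WT BafA1, replicate 1 of Trem2 KO DMSO or replicate 2 of Trem2 KO BafA1 (adjusted p 0.064 to 0.14), and with DESeq2 (-0.31, adjusted p = 0.11) or no filter (-0.29, adjusted p = 0.25). Usp18, the protease that removes Isg15 and dampens the interferon receptor, did not pass, at 2.35, 3.37 and 4.01 CPM in DMSO and 2.35, 3.16 and 3.82 CPM in BafA1 (-0.09, SE 0.33, adjusted p = 0.84). Its libraries interleaved.

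Among the 10 tested nucleotide and membrane effectors, 7 fell, 1 rose and 2 were not called. Rtp4, an interferon-induced inhibitor of several viruses, went from 93.3, 114 and 98.4 CPM to 16.6, 20.8 and 31.4 CPM (-2.16, SE 0.18, adjusted p = 8.3e-10). Slfn8, a Schlafen family gene, went from 44.4, 42.5 and 55.2 CPM to 19.8, 19.7 and 18.2 CPM (-1.30, SE 0.12, adjusted p = 6.1e-09). Both fell in every treated library. Bst2, the membrane tether that holds budding viruses at the cell surface, rose from 107, 106 and 105 CPM to 155, 126 and 123.2 CPM (0.35, SE 0.088, adjusted p = 0.0025). Ifi44 (-1.12, SE 0.49, adjusted p = 0.065) and Slfn5 (-0.25, SE 0.14, adjusted p = 0.15) did not pass the test, and their libraries overlapped. Ifi44 was called without replicate 3 of WT DMSO or replicate 1 of WT BafA1 (adjusted p 0.016 to 0.035) and Slfn5 without replicate 1 of WT DMSO (adjusted p = 0.025), and both with the block within genotype (adjusted p = 0.022 and 0.041). Rsad2, the antiviral enzyme viperin, was called at -0.52, SE 0.17, adjusted p = 0.013 although its groups overlapped (56.4 CPM in 1 DMSO library, 56.6 CPM in 1 BafA1 library), and it lost the call without replicate 2 or 3 of WT DMSO or replicate 1 or 2 of WT BafA1 (adjusted p 0.052 to 0.093) and with DESeq2 (-0.49, adjusted p = 0.082). Ifi35 lost its call (-0.46, SE 0.17, adjusted p = 0.031) without replicate 2 or 3 of WT DMSO, replicate 1 or 2 of WT BafA1, replicate 1 of Trem2 KO DMSO or replicate 2 of Trem2 KO BafA1 (adjusted p 0.051 to 0.18), with DESeq2 (-0.43, adjusted p = 0.10) and with no filter (-0.42, adjusted p = 0.15).

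Of the nucleic acid sensors, Dhx58 (LGP2), which binds double-stranded RNA, was at 6.83, 6.74 and 6.68 CPM in DMSO and 2.18, 2.11 and 1.56 CPM in BafA1 (-1.77, SE 0.27, adjusted p = 8.9e-06). Ifih1 (MDA5), the sensor of long double-stranded RNA, fell from 35.4, 30.7 and 32.9 CPM to 20.6, 22.7 and 23.6 CPM (-0.56, SE 0.11, adjusted p = 0.00028). Both were lower in all treated libraries. Zbp1, a sensor of Z-form nucleic acid that can trigger cell death, was not called (-0.40, SE 0.25, adjusted p = 0.20). The 5 Ifi200 family genes, which encode DNA-binding proteins with pyrin or HIN domains, all fell. Ifi207 was at 185, 189 and 219.7 CPM and 72.7, 72.5 and 82.2 CPM (-1.39, SE 0.13, adjusted p = 9.1e-09). Ifi204 was at 81.1, 79.0 and 90.3 CPM and 24.5, 28.6 and 36.8 CPM (-1.48, SE 0.18, adjusted p = 5.9e-07). Treated and control libraries lay far apart in both.

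The ADP-ribosylation group fell in all 3 members. Parp14, an ADP-ribosyltransferase, went from 66.2, 81.7 and 87.2 CPM to 39.4, 39.6 and 41.5 CPM (-0.97, SE 0.10, adjusted p = 4.0e-08). Dtx3l, a ubiquitin ligase that works in a complex with Parp9, went from 50.4, 59.6 and 55.3 CPM to 30.9, 27.5 and 29.5 CPM (-0.92, SE 0.11, adjusted p = 2.7e-07), and neither gene overlapped. The Gbp and Irg GTPases, which gather on vacuoles that hold microbes, rose in 2 cases and fell in 1. Gbp2 rose, with 3.84, 4.38 and 4.45 CPM in DMSO and 30.9, 31.4 and 18.8 CPM in BafA1 (2.67, SE 0.25, adjusted p = 6.7e-09), and replicate 3 was the lowest of the treated libraries. Gbp3 rose from 3.84, 3.37 and 3.26 CPM to 4.53, 7.07 and 6.26 CPM (0.78, SE 0.24, adjusted p = 0.011), a call lost without replicate 2 of WT BafA1 (0.65, adjusted p = 0.066). Igtp fell from 18.4, 20.0 and 16.9 CPM to 11.6, 10.2 and 12.3 CPM (-0.70, SE 0.16, adjusted p = 0.0010). Gbp7 and Irgm1 were not called, at -0.20 and -0.01, and both overlapped between treatments. Without WT BafA1 replicate 3 the comparison called 34 of the 44 genes lower and 3 higher.

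**Figure D2:**
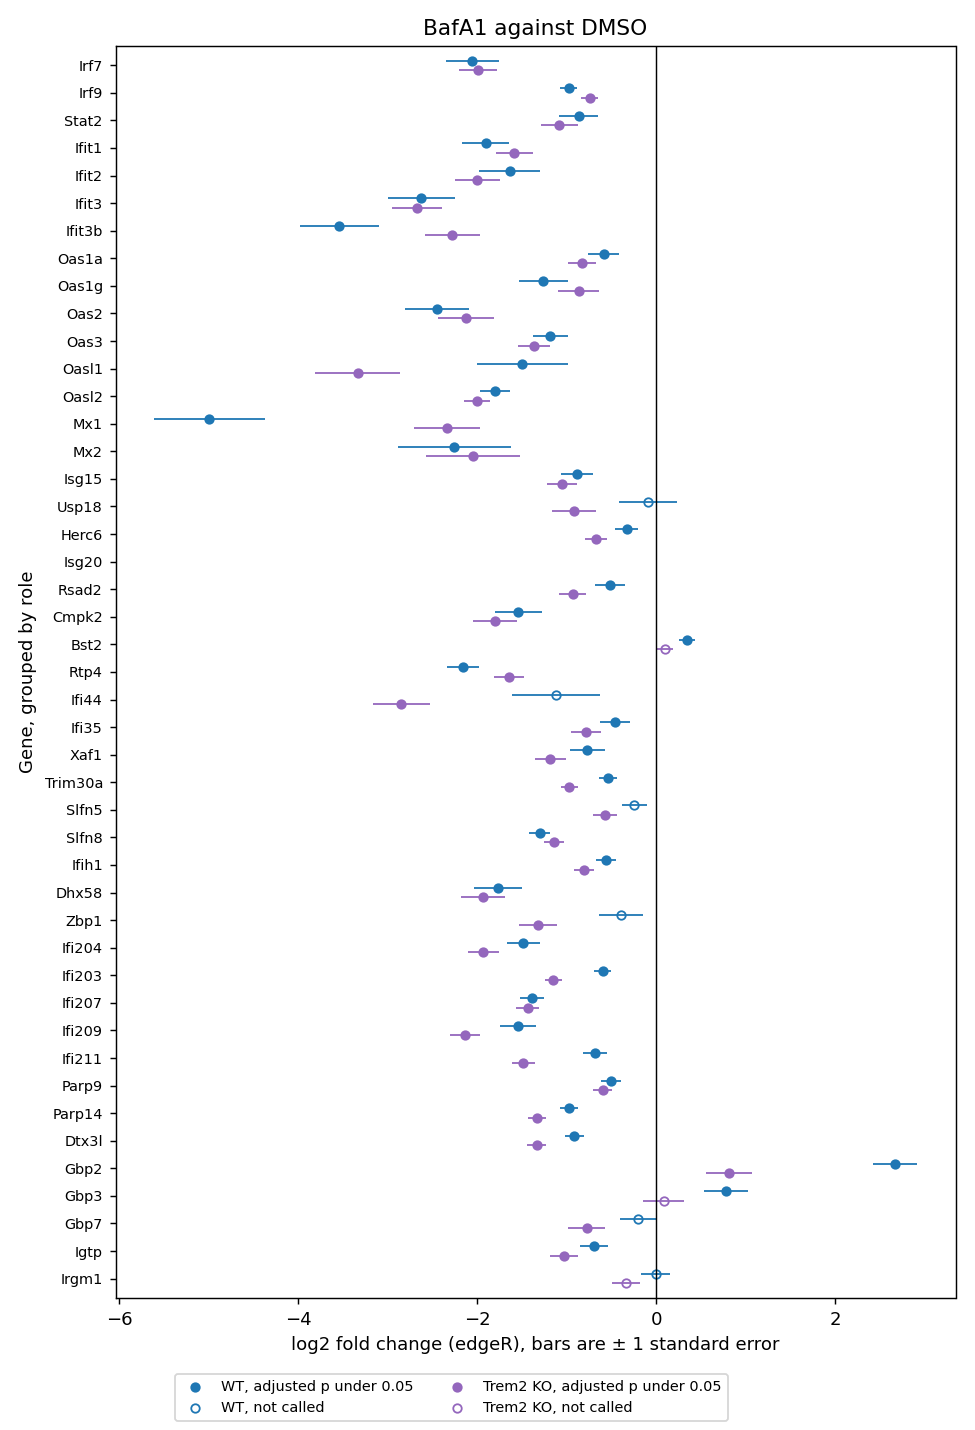
Log2 fold change of BafA1 against DMSO (x axis) for each of the 44 tested genes (y axis, by role) in WT and in Trem2 KO cells, with bars of 1 standard error and filled points for adjusted p under 0.05. Nearly all points lie left of 0 in both genotypes, and Gbp2 lies to the right at 2.67 in WT and 0.81 in Trem2 KO.

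The same drug comparison was made in Trem2 KO cells, which share no library with the WT comparison. Here 40 of the 44 genes were lower with BafA1 and 1, Gbp2, was higher, where 40.6% of all genes were called, 20.7% lower and 19.8% higher. The median was -1.25, against 0.00 for all genes tested. No overlap between treatments was seen for 42 of the 45 genes, against 47.7% of all genes. All 7 tested granulocyte markers and 8 of 10 macrophage markers fell here too, and their part was again not tested. The counts were 40 lower and 0 higher without Trem2 KO BafA1 replicate 1, and 41 lower and 1 higher without Trem2 KO DMSO replicate 1.

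Irf7 fell from 58.4, 65.5 and 72.4 CPM to 11.1, 15.2 and 25.0 CPM (-1.99, SE 0.22, adjusted p = 1.3e-07). Irf9 went from 91.0, 98.7 and 107 CPM to 54.0, 61.5 and 62.5 CPM (-0.74, SE 0.097, adjusted p = 1.8e-06). Both were lower in every treated library. Ifit3 stood at 29.1, 40.3 and 38.4 CPM in DMSO and 1.96, 7.61 and 8.80 CPM in BafA1 (-2.67, SE 0.28, adjusted p = 6.8e-08). Ifit2 stood at 17.3, 28.6 and 24.8 CPM and 3.36, 8.21 and 6.95 CPM (-2.001, SE 0.25, adjusted p = 1.0e-06). The treated values spread widely in both genes, with replicate 1 lowest. Oasl2 went from 42.7, 55.7 and 56.5 CPM to 12.1, 13.0 and 13.9 CPM (-2.003, SE 0.15, adjusted p = 3.1e-10). Oas3, the largest Oas enzyme, went from 35.1, 39.5 and 29.9 CPM to 11.5, 15.8 and 13.9 CPM (-1.36, SE 0.18, adjusted p = 1.5e-06). The steepest fall on the log2 scale was that of Oasl1, which in mice restrains the translation of Irf7, from 4.85, 7.63 and 6.48 CPM to 0.561, 0.401 and 0.926 CPM (-3.34, SE 0.47, adjusted p = 5.4e-06).

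Mx1 remained detectable in treated Trem2 KO cells, at 1.12, 1.80 and 1.85 CPM after 5.54, 9.54 and 8.33 CPM in DMSO (-2.34, SE 0.37, adjusted p = 1.9e-05). Mx2 fell from 2.54, 3.44 and 2.55 CPM to 0.280, 1.40 and 0.463 CPM (-2.05, SE 0.53, adjusted p = 0.0034). Their groups did not overlap. Isg15 went from 31.6, 49.4 and 46.5 CPM to 16.3, 23.2 and 23.4 CPM (-1.05, SE 0.17, adjusted p = 2.1e-05). Herc6 went from 35.3, 37.6 and 33.6 CPM to 20.0, 22.0 and 25.5 CPM (-0.67, SE 0.12, adjusted p = 9.6e-05). Usp18, not called in WT, fell from 9.47, 14.3 and 14.8 CPM to 4.76, 8.81 and 7.41 CPM (-0.92, SE 0.25, adjusted p = 0.0044). The ISG15 system thus fell in 3 of 3 members. Ifi44, also not called in WT, fell from 14.8, 16.8 and 15.0 CPM to 1.54, 3.41 and 1.62 CPM (-2.85, SE 0.32, adjusted p = 2.1e-07). Slfn5 fell from 191, 233 and 217 CPM to 118, 176 and 138 CPM (-0.57, SE 0.14, adjusted p = 0.0017).

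Slfn8 and Trim30a, an interferon-induced member of the tripartite motif family, had the smallest p-values among the membrane and nucleotide effectors, while Ifi44, Cmpk2 and Rtp4 fell further (-2.85, -1.80 and -1.64). Slfn8 fell from 71.4, 76.7 and 78.0 CPM to 30.0, 34.9 and 38.7 CPM (-1.14, SE 0.11, adjusted p = 2.6e-08), and Slfn8 shares 35.5% of its terminal 31-base words with other genes. Trim30a fell from 247, 262 and 238 CPM to 105, 132 and 147 CPM (-0.97, SE 0.097, adjusted p = 3.4e-08). Bst2 was not called, at 165, 168 and 174 CPM in DMSO and 172, 172 and 198 CPM in BafA1 (0.09, SE 0.086, adjusted p = 0.41), and its groups overlapped. Dhx58 went from 10.4, 13.0 and 9.95 CPM to 2.10, 3.21 and 3.70 CPM (-1.94, SE 0.25, adjusted p = 1.2e-06). Ifih1 went from 40.4, 46.8 and 50.2 CPM to 27.0, 24.6 and 26.6 CPM (-0.81, SE 0.11, adjusted p = 3.8e-06). Zbp1 was called here, falling from 10.9, 12.02 and 13.4 CPM to 4.34, 4.81 and 5.56 CPM (-1.32, SE 0.21, adjusted p = 2.6e-05). All 3 sensors were lower in every treated library.

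Ifi209 fell from 44.8, 42.8 and 56.0 CPM to 8.83, 11.8 and 12.5 CPM (-2.14, SE 0.17, adjusted p = 8.2e-10). Ifi203 fell from 105, 120.2 and 131 CPM to 52.1, 52.5 and 56.0 CPM (-1.15, SE 0.096, adjusted p = 2.2e-09). Neither overlapped. Ifi209 shares 62.2% of its terminal words with other genes, most often Ifi214, and Ifi211 87.8%, most often Ifi205. The counts of both are therefore uncertain. Parp14 went from 101, 114 and 109.7 CPM to 41.8, 46.9 and 40.1 CPM (-1.34, SE 0.10, adjusted p = 5.3e-10). Dtx3l went from 77.2, 72.5 and 89.1 CPM to 32.2, 34.3 and 27.3 CPM (-1.34, SE 0.11, adjusted p = 1.2e-09). These fell in all treated libraries. Among the GTPases, Igtp fell from 22.2, 31.1 and 25.5 CPM to 10.9, 15.0 and 13.2 CPM (-1.03, SE 0.16, adjusted p = 1.4e-05), and Gbp7 from 11.1, 7.83 and 10.4 CPM to 5.47, 6.61 and 4.86 CPM (-0.78, SE 0.21, adjusted p = 0.0045). Gbp2 rose from 8.78, 7.06 and 6.02 CPM to 17.7, 9.42 and 9.96 CPM (0.81, SE 0.26, adjusted p = 0.016), and replicate 1 was the highest of the treated libraries. The call was lost without replicate 3 of Trem2 KO DMSO (0.71, adjusted p = 0.066) and without replicate 1 of Trem2 KO BafA1 (0.42, adjusted p = 0.24). Gbp3 (0.08) and Irgm1 (-0.34) were not called, and Irgm1 was called lower without replicate 1 of Trem2 KO DMSO or replicate 2 of Trem2 KO BafA1 (adjusted p 0.041 to 0.044).

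The third comparison asked how the genotypes differed without the drug. It uses the DMSO libraries that also served as controls above. In DMSO, 39 of the 44 genes were higher in Trem2 KO and 0 lower by the edgeR test, where 30.3% of all genes were called, 13.8% higher and 16.5% lower. At an unadjusted p of 0.05, 41 of the 44 passed in either direction. The share of all genes at this unadjusted threshold is not given here, so this count has no background beside it. The median log2 difference was 0.80, against -0.01 over all genes, and the range was 0.09 to 2.92. Genotypes did not overlap for 39 of the 45 genes, as for 41.9% of all genes. All 7 tested granulocyte markers were higher in Trem2 KO as well, as were 3 of 10 macrophage markers with 3 lower, and their part in the result was not tested. Without Trem2 KO DMSO replicate 1 the count was again 39 higher and 0 lower. Fewer were higher without Trem2 KO DMSO replicate 2 (32), WT DMSO replicate 1 (33) or Trem2 KO DMSO replicate 3 (36).

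**Figure D3:**
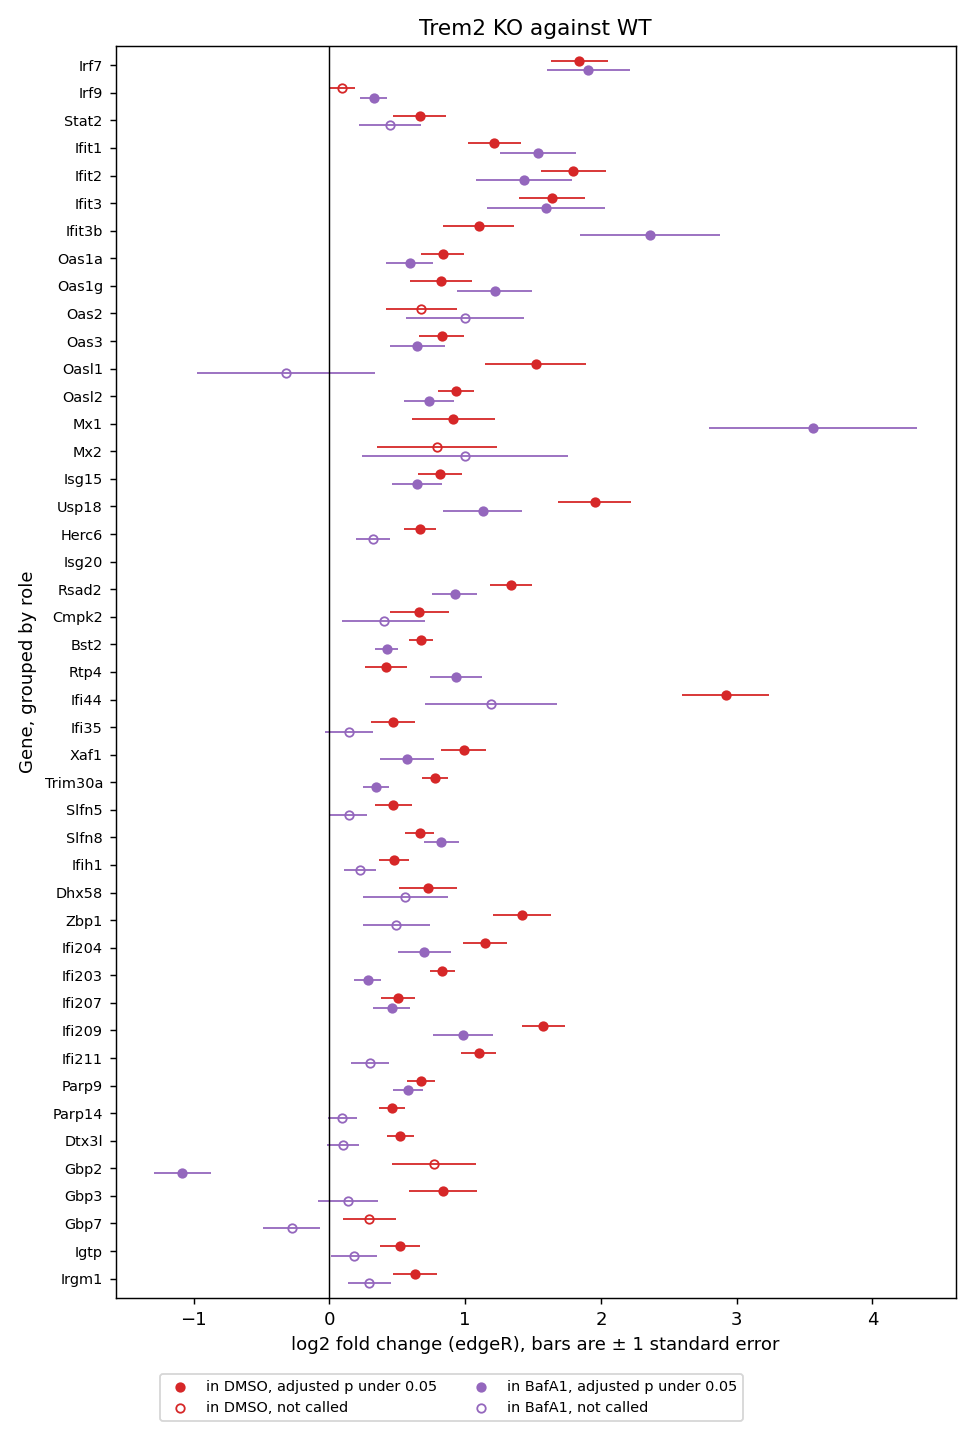
Log2 fold change of Trem2 KO against WT (x axis) for the 44 tested genes (y axis, by role) in DMSO and in BafA1, with bars of 1 standard error and filled points for adjusted p under 0.05. All 44 DMSO values lie above 0, and in BafA1 Gbp2 is the called gene below 0, at -1.08.

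Irf7 averaged 18.4 ± 1.91 CPM in WT and 65.5 ± 7.00 CPM in Trem2 KO (SD, n = 3; 1.84, SE 0.21, adjusted p = 4.8e-07). Stat2 averaged 20.2 ± 5.30 and 32.2 ± 10.6 CPM (0.67, SE 0.20, adjusted p = 0.012), with single libraries at 14.1, 23.2 and 23.3 CPM in WT and 22.4, 43.5 and 30.8 CPM in Trem2 KO that overlapped. The Stat2 call was lost without replicate 1 of WT DMSO (0.49, adjusted p = 0.069) and without replicate 2 of Trem2 KO DMSO (0.38, adjusted p = 0.17). Irf9 did not pass, at 93.0 ± 8.82 and 98.9 ± 7.96 CPM (0.09, SE 0.093, adjusted p = 0.50). Ifit2 stood at 5.55, 6.40 and 8.16 CPM in WT against the 17.3, 28.6 and 24.8 CPM already given for Trem2 KO (1.80, SE 0.24, adjusted p = 4.5e-06). Ifit3 stood at 8.75, 12.8 and 12.6 CPM in WT (1.64, SE 0.24, adjusted p = 1.7e-05), below every Trem2 KO library. All 4 Ifit genes were higher.

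In the Oas family 5 of 6 were higher. Oasl2 averaged 27.1 ± 1.81 CPM in WT and 51.6 ± 7.73 CPM in Trem2 KO (0.94, SE 0.13, adjusted p = 8.7e-06). Oas1a had tight groups, at 20.5, 20.7 and 19.7 CPM in WT and 35.8, 36.6 and 36.1 CPM in Trem2 KO (0.83, SE 0.16, adjusted p = 0.00024). However, it shares 47.8% of its terminal words with other genes, most often Oas1g. Oas2 was not called (0.68, SE 0.26, adjusted p = 0.054). It was called without replicate 3 of WT DMSO, replicate 1 or 3 of WT BafA1, replicate 1 of Trem2 KO DMSO or replicate 2 of Trem2 KO BafA1 (adjusted p 0.018 to 0.044), with limma-voom (adjusted p = 0.043), with the replicate block (adjusted p = 0.037) and with only the libraries compared (adjusted p = 0.036), and the Oas1g call was lost without replicate 3 of WT DMSO (0.61, adjusted p = 0.054). Mx1 averaged 4.10 ± 0.953 and 7.81 ± 2.05 CPM (0.91, SE 0.31, adjusted p = 0.027), and the call was lost without replicate 1 or 2 of WT DMSO or replicate 2 or 3 of Trem2 KO DMSO (adjusted p 0.074 to 0.14) and with DESeq2 (0.93, adjusted p = 0.055). Mx2 was not called (0.79, SE 0.44, adjusted p = 0.19).

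Usp18 averaged 3.24 ± 0.836 CPM in WT and 12.9 ± 2.95 CPM in Trem2 KO (1.95, SE 0.27, adjusted p = 7.1e-06). Herc6 averaged 22.3 ± 2.13 and 35.5 ± 2.02 CPM (0.67, SE 0.12, adjusted p = 0.00015). The membrane and nucleotide effectors were higher in all 10 tested members. Ifi44 was at 3.42, 1.68 and 1.34 CPM in WT, every library far below the Trem2 KO ones (2.92, SE 0.32, adjusted p = 2.4e-07). Rsad2 stood at 56.4, 73.1 and 80.7 CPM in WT and 153, 211 and 169 CPM in Trem2 KO (1.34, SE 0.16, adjusted p = 6.1e-07). The calls of 4 of these genes depended on single libraries. Rtp4 (0.42) lost its call without replicate 1 or 3 of WT DMSO or replicate 2 or 3 of Trem2 KO DMSO (adjusted p 0.093 to 0.17), with DESeq2 (0.43, adjusted p = 0.23) and with unscaled library sizes (0.38, adjusted p = 0.071). Ifi35 (0.47) lost it without replicate 1 of WT DMSO or replicate 1 or 3 of Trem2 KO DMSO (adjusted p 0.050 to 0.14), with DESeq2 (0.49, adjusted p = 0.076), with unscaled library sizes (0.43, adjusted p = 0.059) and with no filter (0.44, adjusted p = 0.14). Cmpk2, a mitochondrial nucleotide kinase, lost it without replicate 1 of WT DMSO (0.54, adjusted p = 0.10) and without replicate 2 of Trem2 KO DMSO (0.51, adjusted p = 0.14), and Slfn5 without replicate 1 of WT DMSO (0.33, adjusted p = 0.070) and without replicate 2 of Trem2 KO DMSO (0.41, adjusted p = 0.050).

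The sensors were higher in 3 of 3 cases. Zbp1 averaged 4.56 ± 0.739 CPM in WT and 12.1 ± 1.29 CPM in Trem2 KO (1.42, SE 0.21, adjusted p = 1.7e-05). Ifih1 averaged 33.0 ± 2.39 and 45.8 ± 4.97 CPM (0.48, SE 0.11, adjusted p = 0.0016). Dhx58 was called (0.73, SE 0.21, adjusted p = 0.011) but not without replicate 2 of Trem2 KO DMSO (0.60, adjusted p = 0.077). The Ifi200 family was higher in 5 of 5. Ifi209 was at 16.2, 17.2 and 14.7 CPM in WT (1.58, SE 0.16, adjusted p = 5.9e-08), and Ifi203 averaged 66.7 ± 6.96 and 119 ± 12.9 CPM (0.83, SE 0.094, adjusted p = 3.8e-07). Parp9 stood at 34.6, 47.3 and 40.6 CPM in WT and 61.2, 65.3 and 70.4 CPM in Trem2 KO (0.68, SE 0.10, adjusted p = 2.7e-05). Dtx3l averaged 55.1 ± 4.63 and 79.6 ± 8.56 CPM (0.52, SE 0.10, adjusted p = 0.00033). No overlap occurred in either gene.

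Irgm1, a regulator of the other GTPases on membranes, stood at 14.9, 16.8 and 16.9 CPM in WT and 20.6, 25.6 and 29.6 CPM in Trem2 KO (0.63, SE 0.16, adjusted p = 0.0042). Igtp averaged 18.4 ± 1.57 and 26.2 ± 4.52 CPM (0.52, SE 0.15, adjusted p = 0.010), a call lost without replicate 2 of Trem2 KO DMSO (0.38, adjusted p = 0.094). Gbp3 was higher (0.84, SE 0.25, adjusted p = 0.014), with the call lost with no filter on low counts (0.81, adjusted p = 0.058). Gbp2 did not pass although its groups did not overlap (0.77, SE 0.31, adjusted p = 0.066), but it was called with DESeq2 (0.79, adjusted p = 0.045), no filter (adjusted p = 0.035), the replicate block (adjusted p = 0.039) and only the libraries compared (adjusted p = 0.024), and without replicate 3 of WT BafA1 or replicate 1 or 2 of Trem2 KO BafA1 (adjusted p 0.028 to 0.048). Gbp7 was not called (0.29, SE 0.20, adjusted p = 0.28).

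The fourth comparison asked how the genotypes differed in the presence of the drug. Of the 44 genes, 24 were higher in Trem2 KO and 1 was lower, where 26.7% of all genes were called, 12.5% higher and 14.2% lower. The median was 0.56, against 0.01 for all genes tested. No overlap was seen for 24 of the 45 genes, against 40.9% of all genes. The treated libraries are the same ones as in the drug comparisons. Without Trem2 KO BafA1 replicate 3 the count of higher genes dropped to 15. It was 16 without WT BafA1 replicate 1, and 17 without WT BafA1 replicate 2 or Trem2 KO BafA1 replicate 2. Leaving out WT BafA1 replicate 3 gave 23, and leaving out Trem2 KO BafA1 replicate 1 gave 24. Of 7 tested granulocyte markers 3 were higher in Trem2 KO, and their part was not tested.

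Irf7 averaged 4.45 ± 2.93 CPM in treated WT cells and 17.1 ± 7.16 CPM in treated Trem2 KO cells (1.91, SE 0.31, adjusted p = 8.9e-05), and Irf9 47.1 ± 3.77 and 59.3 ± 4.68 CPM (0.33, SE 0.10, adjusted p = 0.020). The Irf9 call was lost without replicate 1 or 2 of WT BafA1 or replicate 2 or 3 of Trem2 KO BafA1 (adjusted p 0.065 to 0.093) and with no filter (0.31, adjusted p = 0.065). All 4 Ifit genes were higher. Ifit1 stood at 6.59, 10.0 and 8.10 CPM in treated Trem2 KO libraries (1.54, SE 0.28, adjusted p = 0.00034), each above the WT ones. Ifit3b averaged 0.556 ± 0.221 and 3.01 ± 1.19 CPM (2.36, SE 0.52, adjusted p = 0.0018). The Ifit3 call (1.59, SE 0.43, adjusted p = 0.0088) was lost without Trem2 KO BafA1 replicate 3 (1.23, adjusted p = 0.065) and with limma-voom (1.27, adjusted p = 0.089).

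Oas1g stood at 2.85, 4.81 and 5.73 CPM in WT and 7.85, 11.02 and 13.2 CPM in Trem2 KO (1.22, SE 0.28, adjusted p = 0.0024). Oasl2 averaged 7.74 ± 1.94 and 13.0 ± 0.921 CPM (0.73, SE 0.18, adjusted p = 0.0051). The calls of Oas1a (0.59) and Oas3 (0.65) were lost, respectively, without replicate 1 or 2 of WT BafA1 or replicate 2 of Trem2 KO BafA1 (adjusted p 0.077 to 0.10) and without replicate 1 or 2 of WT BafA1 or replicate 2 or 3 of Trem2 KO BafA1 (adjusted p 0.058 to 0.14). Mx1 had 25 counts in treated Trem2 KO libraries and 2 in treated WT ones, a scaled ratio of 14.0 (95% exact interval 3.48 to 122, counting error only; edgeR adjusted p = 0.0015). Mx2 was not called (1.00, SE 0.76, adjusted p = 0.35). Usp18 averaged 3.11 ± 0.738 and 7.00 ± 2.06 CPM (1.13, SE 0.29, adjusted p = 0.0065). Isg15 (0.65, SE 0.19, adjusted p = 0.013) lost its call without replicate 1 of WT BafA1 (0.54, adjusted p = 0.074), without replicate 2 of Trem2 KO BafA1 (0.55, adjusted p = 0.053) and without replicate 3 of Trem2 KO BafA1 (0.56, adjusted p = 0.060). Slfn8 averaged 19.2 ± 0.871 and 34.5 ± 4.35 CPM (0.83, SE 0.13, adjusted p = 5.2e-05). Rsad2 stood at 46.1, 44.96 and 56.6 CPM in WT and 67.3, 117 and 98.2 CPM in Trem2 KO (0.92, SE 0.16, adjusted p = 0.00027), every Trem2 KO library being the higher.

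None of the 3 sensors was called in the treated cells, with Zbp1 at 0.49, SE 0.25, adjusted p = 0.14 and Ifih1 at 0.23, SE 0.12, adjusted p = 0.16. At an unadjusted p of 0.05, 29 of all 44 genes passed in this comparison, again without a share of all genes at that threshold. Ifi209 stood at 4.53, 4.36 and 7.65 CPM in WT, each library below those of Trem2 KO (0.98, SE 0.22, adjusted p = 0.0020). Ifi204 averaged 30.0 ± 6.29 and 49.8 ± 18.3 CPM (0.70, SE 0.20, adjusted p = 0.011), with the call lost without replicate 1 of WT BafA1 (0.58, adjusted p = 0.071), without replicate 2 of Trem2 KO BafA1 (0.52, adjusted p = 0.071) and without replicate 3 of Trem2 KO BafA1 (0.53, adjusted p = 0.077). Ifi207 (0.46), Trim30a (0.34), Xaf1 (0.57) and Ifi203 (0.28) also lost theirs without single libraries. For Ifi207 these were replicate 1 or 2 of WT BafA1 or replicate 2 or 3 of Trem2 KO BafA1 (adjusted p 0.058 to 0.12), and for Trim30a replicate 1 or 2 of WT BafA1 or replicate 3 of Trem2 KO BafA1 (adjusted p 0.065 to 0.11). For Xaf1 they were replicate 1, 2 or 3 of WT BafA1 or replicate 1 or 3 of Trem2 KO BafA1 (adjusted p 0.053 to 0.17), and for Ifi203 replicate 1, 2 or 3 of WT BafA1, replicate 2 of Trem2 KO DMSO or replicate 1, 2 or 3 of Trem2 KO BafA1 (adjusted p 0.051 to 0.13). With no filter on low counts Xaf1 (adjusted p = 0.11) and Ifi203 (adjusted p = 0.17) were not called either. DESeq2, limma-voom and unscaled library sizes called neither (adjusted p 0.052 to 0.091). Ifi203 was also not called with RLE factors (0.27, adjusted p = 0.051).

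Parp9 averaged 28.9 ± 1.14 CPM in WT and 43.4 ± 1.83 CPM in Trem2 KO (0.58, SE 0.11, adjusted p = 0.00051), while Parp14 (0.10) and Dtx3l (0.10) were not called. Bst2 (0.42, SE 0.086, adjusted p = 0.00098) was higher in treated Trem2 KO cells in each library. Gbp2 was the exception among called genes, averaging 27.0 ± 7.16 CPM in WT and 12.3 ± 4.61 CPM in Trem2 KO (-1.08, SE 0.21, adjusted p = 0.00057). Every treated WT library exceeded every treated Trem2 KO library, the nearest pair being 18.8 and 17.7 CPM. Irgm1 was not called (0.30, SE 0.16, adjusted p = 0.18). Of other genes not called, Herc6 was called higher with upper-quartile factors (adjusted p = 0.045) and without replicate 1 of Trem2 KO BafA1 (adjusted p = 0.038). Ifi211 was called higher without replicate 1 of Trem2 KO BafA1 (adjusted p = 0.033), Ifi44 without replicate 1 of WT BafA1 (adjusted p = 0.028) and Oas2 without replicate 3 of WT BafA1 (adjusted p = 0.034).

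**Figure D4:**
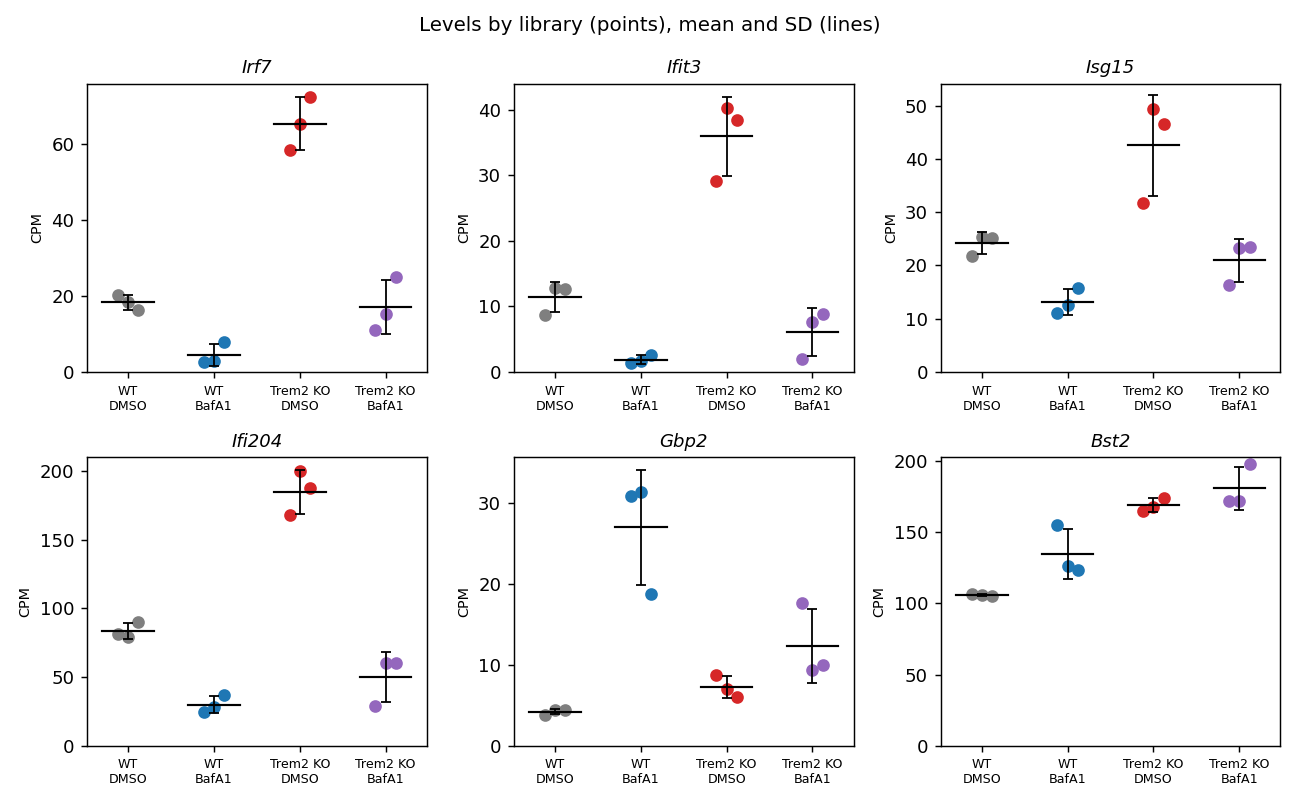
CPM (y axes, from 0) of Irf7, Ifit3, Isg15, Ifi204, Gbp2 and Bst2 in each of the 12 libraries, with points for libraries and lines for the mean and SD of each group of 3. Irf7 falls with BafA1 in both genotypes and is higher in Trem2 KO, whereas Gbp2 is highest in treated WT cells at 18.8 to 31.4 CPM.

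Whether the response to BafA1 differed between genotypes was tested as an interaction, which uses all 4 groups. For 3 of the 44 genes it passed, Gbp2, Ifi211 and Ifi203, and in each the log2 response was lower in Trem2 KO. Over all genes tested 8.81% passed, 3.93% lower and 4.88% higher. None of the 44 passed in the higher direction by edgeR. At an unadjusted p of 0.05, 14 of the 44 passed in either direction. The 8.81% holds for the adjusted threshold, so these 14 cannot be set against it. The interaction value was below 0 for 34 of the 44 genes and above 0 for 10, with 48.3% of all genes below 0, and the median was -0.29 against 0.01.

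Gbp2 rose by 2.67 on the log2 scale in WT and by 0.81 in Trem2 KO, a difference of -1.85, SE 0.38, adjusted p = 0.0031. It passed under each of the 21 alternatives tried. Ifi211 fell from 47.0, 56.8 and 57.7 to 32.9, 29.0 and 39.3 CPM in WT (-0.69) and from 104, 137 and 106 to 34.2, 47.1 and 44.2 CPM in Trem2 KO (-1.49), so the response differed by -0.80, SE 0.19, adjusted p = 0.010. The treated levels of Ifi211 overlapped between genotypes, while its DMSO levels did not. Ifi203 changed by -0.60 in WT and -1.15 in Trem2 KO, a difference of -0.55, SE 0.14, adjusted p = 0.014, and the call was lost without replicate 2 of WT DMSO (-0.48, adjusted p = 0.050). In WT it stood at 72.4, 59.0 and 68.8 CPM in DMSO and 43.5, 42.6 and 45.9 CPM in BafA1.

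Other genes came close without passing. Mx1 had an interaction of 2.65, SE 0.87, adjusted p = 0.059, with the 2 counts of treated WT cells behind it, and it was called with limma-voom (adjusted p = 0.043), with the replicate block (adjusted p = 0.046) and without replicate 3 of WT BafA1 (adjusted p = 0.025). Trim30a was at -0.43, SE 0.14, adjusted p = 0.052 and passed under 10 of the 21 alternatives. Zbp1 (-0.92, SE 0.33, adjusted p = 0.081), Dtx3l (-0.42, SE 0.15, adjusted p = 0.090) and Ifi44 (-1.73, SE 0.64, adjusted p = 0.094) did not pass. Ifi44 was called without replicate 1 of WT DMSO or replicate 2 of Trem2 KO BafA1 (adjusted p 0.033 to 0.044), Oasl1 without replicate 2 of WT BafA1 (adjusted p = 0.049), and Rtp4 without replicate 3 of WT BafA1 (adjusted p = 0.046). For Usp18, Slfn5, Gbp7, Gbp3 and Bst2, which were called in 1 genotype only, the difference itself was not called (adjusted p 0.23, 0.32, 0.23, 0.21 and 0.22). Irf7 changed by -2.06 in WT and -1.99 in Trem2 KO (interaction 0.06, SE 0.36, adjusted p = 0.94). Among the other families, interactions of Irf9 (0.23) and Stat2 (-0.22), of Ifit3b (1.26) and Ifit1 (0.32), and of Oasl1 (-1.84) and Oas1g (0.39) were not called. Nor were those of Mx2 (0.21), Herc6 (-0.34), Ifih1 (-0.25) and Parp14 (-0.36).

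Most of the genes shared an order of mean levels across the 4 groups. The Trem2 KO DMSO group was highest for 42 of the 45 genes, against 25.1% of all genes tested, and the WT BafA1 group lowest for 38, against 28.4%. For 31 genes the order ran from Trem2 KO DMSO through WT DMSO and Trem2 KO BafA1 to WT BafA1, as for 9.7% of all genes. The exceptions at the top were Gbp2, highest in treated WT cells, and Bst2 and Gbp3, highest in treated Trem2 KO cells. For 34 genes the mean of treated Trem2 KO cells lay below that of untreated WT cells (50.6% of all genes tested), and for 20 every library did (28%). Summed over the 45 genes, WT cells held 1659 ± 102 CPM (SD, n = 3) without and 1003 ± 64.0 CPM with BafA1, and Trem2 KO cells 2798 ± 254 CPM without and 1354 ± 178 CPM with it. With BafA1 the sum was 60.4% of its DMSO level in WT and 48.4% in Trem2 KO, and Trem2 KO held 1.69 times the WT sum in DMSO and 1.35 times in BafA1. Isg20 stayed between 0.601 and 2.31 CPM in all libraries and was not tested.

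**Figure D5:**
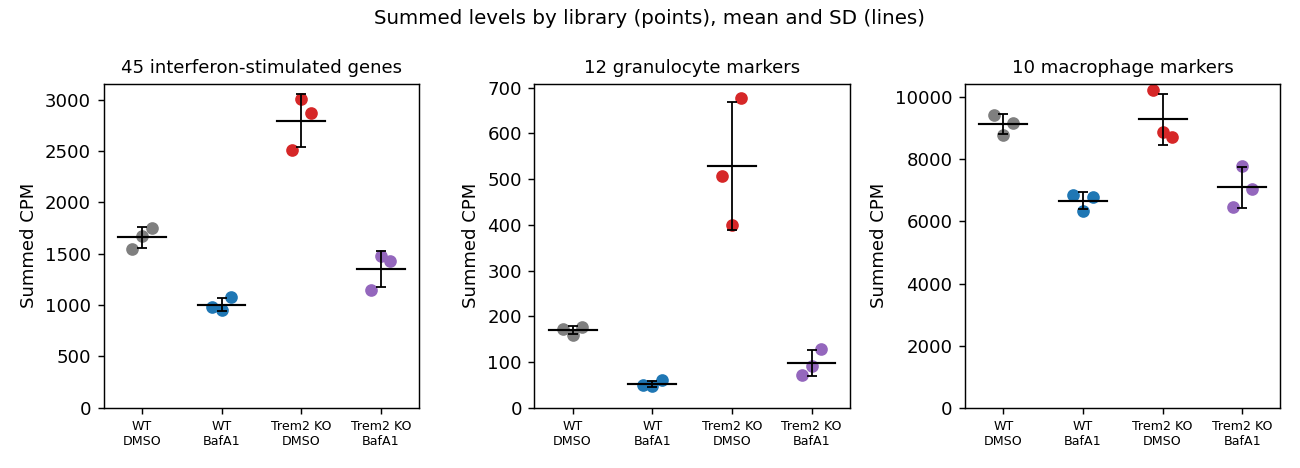
Summed CPM (y axes, from 0) of the 45 interferon-stimulated genes, 12 granulocyte markers and 10 macrophage markers in each library, with lines for the mean and SD of each group of 3. The interferon-stimulated genes and the granulocyte markers are highest in Trem2 KO DMSO libraries, while the macrophage markers of both DMSO groups lie between 8728 and 10238 CPM.

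Genes upstream of these 45 were looked at from lists of the pathway. Interferon genes themselves were at the limit of detection. Of 21 ligand genes, among them Ifnb1 and Ifng, 8 had any count, and all held 13 counts over the 12 libraries, at most 2 for a gene in a library. A count of 0 in a library allows up to 3 counts, or 0.420 to 0.695 CPM depending on the library. This limit does not cover the libraries of the 8 genes that hold a count.

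Among receptors and JAK-STAT genes 10 were tested. With BafA1 2 rose and 5 fell in WT, and 0 rose and 4 fell in Trem2 KO, while in DMSO 2 were higher and 1 lower in Trem2 KO and in BafA1 1 was higher and 1 lower. Over all genes tested 21.6% rose and 25.3% fell in WT and 19.8% rose and 20.7% fell in Trem2 KO, so 2 of 10 rising is near the background. Between genotypes 13.8% of all genes were higher in Trem2 KO and 16.5% lower in DMSO, and 12.5% and 14.2% in BafA1. The genotype counts of these 10 genes are near those shares. The receptor chain Ifnar1 fell in WT (-0.63, SE 0.13, adjusted p = 0.00030) and in Trem2 KO (-0.67, SE 0.13, adjusted p = 0.00033). Ifnar2 fell by less, with -0.36 and -0.53, and neither chain was called between genotypes. Ifngr1, the ligand-binding chain for interferon gamma, fell from 200.1 ± 10.3 to 94.1 ± 9.88 CPM in WT (-1.09, SE 0.096, adjusted p = 3.0e-09) and from 147 ± 19.4 to 77.3 ± 5.64 CPM in Trem2 KO (-0.93, SE 0.10, adjusted p = 1.3e-07). It was lower in Trem2 KO than in WT in DMSO (-0.45, SE 0.095, adjusted p = 0.00083), against the direction of most of the 45 genes, and in BafA1 (-0.29, SE 0.10, adjusted p = 0.038). Jak1 rose in WT (0.40, SE 0.072, adjusted p = 8.3e-05) and was not called in Trem2 KO (0.05, SE 0.073, adjusted p = 0.62), and this difference passed (-0.35, SE 0.10, adjusted p = 0.037). In DMSO it was higher in Trem2 KO (0.19, SE 0.073, adjusted p = 0.047). Jak2 rose in WT (0.32, adjusted p = 0.036), whereas Ifngr2, Tyk2 and Stat3 were not called in any of these comparisons.

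Negative regulators (13 tested) rose in 1 and fell in 5 cases in WT, and fell in 7 in Trem2 KO, against 25.3% and 20.7% of all genes falling. Samhd1, an enzyme that depletes nucleotides, changed by -1.31, SE 0.090, adjusted p = 5.2e-11 in WT and -1.30, SE 0.093, adjusted p = 2.0e-10 in Trem2 KO, and the phosphatase Ptpn6 by -0.86 and -0.93. Trex1, the exonuclease that clears cytosolic DNA, changed by -2.74, SE 0.48, adjusted p = 5.9e-05 in WT and -2.84, SE 0.38, adjusted p = 2.5e-06 in Trem2 KO, and was higher in Trem2 KO in DMSO (1.29, SE 0.31, adjusted p = 0.0031). Socs1, an inhibitor of the receptor kinases, was not called in any comparison. In DMSO 4 regulators were higher in Trem2 KO, Pias4 among them (0.50, SE 0.12, adjusted p = 0.0028), and 1, Pias1, was lower (-0.32, SE 0.084, adjusted p = 0.0058). Of all genes 13.8% were higher and 16.5% lower there. In BafA1 1 was higher, Isg20l2 (0.49, SE 0.17, adjusted p = 0.040), against 12.5% of all genes. The interaction passed for Pias4 alone of the 13 (-0.69, SE 0.17, adjusted p = 0.014), against 3.93% of all genes in that direction.

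The induction pathway, which leads from nucleic acid sensing to interferon, had 22 tested genes, of which 3 rose and 11 fell with BafA1 in WT and 2 rose and 14 fell in Trem2 KO. Among all genes tested 25.3% fell in WT and 20.7% in Trem2 KO, with 21.6% and 19.8% rising. Irf5 fell from 141 ± 6.47 to 53.4 ± 3.04 CPM in WT (-1.40, SE 0.085, adjusted p = 6.1e-12) and changed by -1.32 in Trem2 KO. Unc93b1, the chaperone of endosomal Toll-like receptors, changed by -1.28 and -1.30, and Tlr8 by -2.57 and -2.40. The DNA-sensing adaptor Sting1 fell in WT (-0.90, SE 0.13, adjusted p = 4.0e-06) and in Trem2 KO (-0.77, SE 0.15, adjusted p = 0.00018), and it was lower in Trem2 KO in DMSO (-0.55, SE 0.13, adjusted p = 0.0023) and in BafA1 (-0.42, SE 0.15, adjusted p = 0.036). Cgas, the enzyme that makes its activating ligand, fell in WT (-0.97, SE 0.18, adjusted p = 7.7e-05) and was not called in Trem2 KO (-0.21, SE 0.18, adjusted p = 0.36; interaction 0.76, SE 0.25, adjusted p = 0.058). In BafA1 it was higher in Trem2 KO (0.61, SE 0.18, adjusted p = 0.016). Mavs, the adaptor of RNA sensors, was called lower in Trem2 KO (-0.77, SE 0.17, adjusted p = 0.0011) and not in WT (-0.23, SE 0.17, adjusted p = 0.29; interaction adjusted p = 0.18). Irf3 was not called in any comparison.

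Irf1, a factor of the interferon gamma response, rose with BafA1, from 75.6, 78.7 and 82.0 CPM to 192, 178 and 126 CPM in WT (1.07, SE 0.11, adjusted p = 4.5e-08) and from 71.6, 69.7 and 78.0 CPM to 114, 101 and 106 CPM in Trem2 KO (0.55, SE 0.12, adjusted p = 0.00063). Replicate 3 was lowest of the treated WT libraries, as for Gbp2. Treated Trem2 KO cells held less Irf1 than treated WT cells (-0.63, SE 0.11, adjusted p = 0.00024), and the interaction fell just short (-0.52, adjusted p = 0.0502). In DMSO 8 of the 22 genes were higher and 1 lower in Trem2 KO, against 13.8% and 16.5% of all genes. The higher ones were led by Slc15a3, a lysosomal transporter (1.02, SE 0.11, adjusted p = 2.8e-07), Tlr7 (1.05, SE 0.12, adjusted p = 4.6e-07) and Irf8 (0.48, SE 0.075, adjusted p = 3.4e-05). In BafA1 5 were higher and 2 lower, against 12.5% and 14.2% of all genes. Tasl, an adaptor for endosomal receptors, was at 0.94, SE 0.16, adjusted p = 0.00019 and Tlr7 at 0.56, SE 0.13, adjusted p = 0.0039. Slc15a3 rose in WT (0.56) and fell in Trem2 KO (-0.60), and the interaction passed (-1.16, SE 0.16, adjusted p = 6.5e-05).

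A wider list of 83 other interferon-stimulated genes had 70 tested. With BafA1 11 rose and 40 fell in WT, and 5 rose and 48 fell in Trem2 KO, where of all genes 21.6% rose and 25.3% fell in WT and 19.8% rose and 20.7% fell in Trem2 KO. In Trem2 KO against WT, 40 were higher and 2 lower in DMSO (13.8% and 16.5% of all genes), and 26 higher and 3 lower in BafA1 (12.5% and 14.2%). Their medians were -0.69, -0.80, 0.49 and 0.35 in that order. Epsti1 was among the falling genes, with -1.41 in WT and -1.53, SE 0.11, adjusted p = 2.8e-10 in Trem2 KO, and Slfn9 fell by 3.04 in WT (adjusted p = 3.8e-10). The surface antigen Ly6e was higher in Trem2 KO in DMSO, at 235 ± 21.1 CPM against 57.3 ± 5.09 CPM (2.04, SE 0.16, adjusted p = 1.2e-09), and in BafA1 (2.18, SE 0.18, adjusted p = 1.7e-08). Ly6a, another surface antigen, stood at 0.641, 0.842 and 0.445 CPM in WT DMSO and 19.6, 15.1 and 28.9 CPM in Trem2 KO DMSO (5.01, SE 0.37, adjusted p = 7.7e-10). Ifi205 and Ms4a4c were higher in treated Trem2 KO cells, by 1.07 and 2.67.

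Rising genes were the minority of the wider list, 11 of 70 in WT, which is a smaller share than the 21.6% of all genes. Cd274, the checkpoint ligand PD-L1, stood at 8.54, 10.9 and 8.01 CPM in WT DMSO and 38.8, 39.7 and 33.4 CPM in WT BafA1 (2.02, SE 0.15, adjusted p = 1.4e-10), and it rose by less in Trem2 KO (0.59, SE 0.13, adjusted p = 0.00090; interaction -1.44, SE 0.20, adjusted p = 9.7e-05). Gbp5 stood at 1.28, 2.36 and 1.63 CPM and 8.56, 8.12 and 5.73 CPM in WT (2.06, SE 0.30, adjusted p = 5.1e-06) and was not called in Trem2 KO (0.18, SE 0.31, adjusted p = 0.69; interaction -1.88, SE 0.44, adjusted p = 0.0096). The chemokine Ccl5 rose in WT (1.498, SE 0.19, adjusted p = 6.5e-07) and fell in Trem2 KO (-0.64, SE 0.16, adjusted p = 0.0024; interaction -2.14, SE 0.25, adjusted p = 1.2e-05), and in DMSO it was higher in Trem2 KO (2.13, SE 0.18, adjusted p = 7.3e-09). Nampt, the enzyme of NAD salvage, rose in both genotypes, by 1.19 and 0.90. In the interaction 7 of the 70 were lower in Trem2 KO and 1 higher, against 3.93% and 4.88% of all genes.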

How the data were processed

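Estimated counts per gene for 12 libraries were deposited by the authors, not normalized; Salmon and the mouse build GRCm39 are named per the submitters' processing notes, while for version, annotation and duplicate handling the entry is: not given in the sources used here. The 3′ mRNA kit carries molecular identifiers, per the labels' protocols. Of the deposited estimated counts above 0, 42.0% were not whole, and they were rounded to whole numbers. Genes passed filterByExpr (minimum count 10, minimum total 15) in 12052 of 56980 cases. One model with 4 group means and TMM factors was fitted over all 12 libraries with edgeR 4.0.16 (R 4.3.3, quasi-likelihood), and p-values were adjusted by Benjamini-Hochberg over all genes tested. A gene is called at an adjusted p under 0.05, and all adjusted p-values in the text come from edgeR unless DESeq2 1.42.0 or limma 3.58.1 is named.

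The members and all lists were chosen with earlier results of these data known. Symbols of the lists absent from the gene table (Mnda and Pyhin1) were not analysed here, and Ddx58 stood for Rigi. Values, in part without SE and adjusted p, are given for the 2 genes of each role with the smallest p in each comparison. They are also given for some of the genes whose call or direction differs between comparisons. In the pathway lists they are given for some of the receptor and JAK-STAT genes, preset induction genes and the 3 genes with the smallest p. Each replicate is a culture from pooled mice, so p-values measure the spread between such cultures. Library totals of 4407466 to 7074860 counts set the precision, and intervals cover counting error only. Same-numbered Trem2 KO libraries deviated together (correlations 0.148 to 0.326). Each library correlated best with its own number among the 3 libraries of the other treatment. A fit with the number as a block within genotype was therefore also made. Other alternatives were RLE and upper-quartile factors, library size alone, testing of unfiltered genes, a minimum of 10 CPM in 3 libraries, DESeq2, limma-voom, a replicate block over all libraries, fits of only the libraries compared, and leaving out each library in turn. Words of 31 bases in the last 300 bases of transcripts (GENCODE annotation of GRCm38) were compared between genes to find shared sequence. The scripts were tested on simulated data. Values of 1 gene of the receptor and JAK-STAT list are not reported here.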

Additional observations from a re-analysis of the deposited data

Results flagged for a closer look

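In 3 of the 44 genes the log2 response to BafA1 differed between Trem2 KO and WT cells by the interaction term of the edgeR model. Gbp2 differed by -1.85 (adjusted p = 0.0031), with a rise of 2.67 in WT and 0.81 in Trem2 KO. Ifi211 differed by -0.80 (adjusted p = 0.010), with -0.69 in WT and -1.49 in Trem2 KO. It shares 87.8% of its terminal 31-base words with other genes, most often Ifi205. Ifi203 differed by -0.55 (adjusted p = 0.014), with -0.60 in WT and -1.15 in Trem2 KO.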

How the results depend on the processing

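Of 4660 log2 values recomputed for the 44 genes over all alternatives, 0 changed direction while called, 104 lost their call and 48 gained one. When each library was left out in turn, genes called higher with BafA1 numbered 2 to 3 in WT and 0 to 1 in Trem2 KO, and genes called lower 30 to 35 and 40 to 41. Genes higher in Trem2 KO numbered 32 to 41 in DMSO, with 32 without Trem2 KO DMSO replicate 2. In BafA1 they numbered 15 to 24, with 15 to 17 without replicate 1 or 2 of WT BafA1 or replicate 2 or 3 of Trem2 KO BafA1. In the interaction, leaving out libraries gave 0 to 2 higher (2 without WT BafA1 replicate 3) and 2 to 5 lower (2 without WT DMSO replicate 2 and 5 without Trem2 KO BafA1 replicate 2). The interaction called 1 gene higher with no filter (Rtp4), 1 with limma-voom (Mx1), 1 with the replicate block (Mx1) and 2 with the block within genotype (Mx1 and Rtp4), which also called 5 lower (Gbp2, Ifi203, Ifi211, Trim30a and Rsad2). The cause of these shifts was not tested. The block within genotype left the Trem2 KO counts at 40 lower and 1 higher. Same-numbered libraries of other group pairs did not consistently deviate together. Correlations were -0.068 to 0.149 between WT treatments, -0.108 to 0.145 between DMSO genotypes and -0.224 to 0.035 between BafA1 genotypes. With so few libraries per group these values cannot decide whether same-numbered libraries share marrow or handling. No alternative moved the median of all genes by more than 0.051, which came from testing unfiltered genes (BafA1 against DMSO in Trem2 KO). The largest shift from a scaling was -0.039, with library size alone (Trem2 KO against WT in DMSO). Genes with few counts, such as Mx1, Mx2, Ifit3b and Oasl1, are limited by depth.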
